A study of Mus musculus with 16 samples.

Results

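In mouse prostate organoids, 208 regions of open chromatin carried an ATAC-seq peak in all 8 libraries treated with the solvent EtOH and in none of the 8 libraries treated with DHT, in SPOP-mutant and in Control organoids alike. These regions are called closed here. They were chosen by merging the peaks of all 16 libraries that overlapped by 1 bp or more on chromosomes 1 to 19, X and Y into 86616 regions, of which 80352 were called in 2 or more libraries. The closed regions made up 0.259% of those 80352 regions. The mirror set, called in all 8 DHT libraries and in no EtOH library (opened regions), held 1214, or 1.51% (2.78% of the regions called in all 8 DHT libraries). Because the peak calls in DHT and EtOH chose the closed regions, the DHT difference at them is given as a description and carries no test. A region without a peak is one whose signal stayed under the caller's threshold, which need not mean that it lost all accessibility.

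The organoids, 3-dimensional cultures that keep prostate epithelial cells, were SPOPmut with DHT, Control with DHT, SPOPmut with EtOH or Control with EtOH, with 4 libraries in each group. DHT was given at 10 nM for 24 h and EtOH for the same time, in each case in medium without mEGF, the epidermal growth factor of mouse organoid medium. All 16 libraries carried the label sgNT, which the labels do not spell out. The labels give no SPOP allele, animal or line, and they leave unsaid whether libraries with the same label are from separate cultures or animals, so the spread between libraries may be technical.

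ATAC-seq uses a transposase that inserts sequencing adapters into accessible DNA, so that peaks mark promoters, enhancers and other sites free of tightly packed nucleosomes. DHT is the potent natural ligand of the androgen receptor, a nuclear receptor that enters the nucleus on binding hormone, joins chromatin at response elements and raises or lowers the transcription of its target genes in prostate epithelium. SPOP is the substrate-recognition adaptor of a cullin 3 ubiquitin ligase, is recurrently mutated in human prostate cancer, and acts on androgen receptor coactivators among other substrates.

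Peak lists held 58800 to 69644 peaks in SPOPmut with DHT, 58038 to 63916 in Control with DHT, 60661 to 67005 in SPOPmut with EtOH and 57245 to 64521 in Control with EtOH. The lists hold no read counts, so depth is unknown. Basal epithelial genes fitted the label of the tissue, since 20 of 20 had a region called in all 16 libraries, as did 16 of 19 luminal genes. The shares were lower for markers of other cells, at 8 of 17 stromal and smooth muscle genes (Tagln, Col1a2 and Lum had no called region), 4 of 8 endothelial, 4 of 10 immune (Cd8a, Adgre1 and Lyz2 had none) and 4 of 9 neuroendocrine genes (Insm1 had none). Called regions at the luminal list summed to 107 to 116 per library in SPOPmut with DHT and 101 to 114 in SPOPmut with EtOH, and to 86 to 92 in Control with DHT and 76 to 95 in Control with EtOH. At the endothelial list they summed to 35 to 44 per library in SPOPmut with DHT and 39 to 48 in SPOPmut with EtOH, and to 47 to 52 in Control with DHT and 52 to 56 in Control with EtOH. Immune genes had 11 to 14 in SPOPmut with DHT and 10 to 12 in SPOPmut with EtOH, and 7 to 10 in Control with DHT and 10 to 12 in Control with EtOH. The genotypes thus did not overlap at the luminal list and, under DHT, at the immune list, and at the endothelial list in either treatment, while they overlapped at the basal, stromal and neuroendocrine lists. The part of these markers in the results was not tested. In organoids of mixed cell types, fewer cells with a region open and less opening per cell cannot be told apart.

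Of the 208 closed regions, 2 (0.962%) overlapped the promoter window of a gene start in the RefSeq table, which spans 250 bases before to 50 bases after a start. The share was 1.40% of opened regions and 20.5% of regions called in all 8 EtOH libraries. Both windows are shown because they are the closed regions for which promoter sequence was at hand (RefSeq, build GRCm38.p6, the same coordinates as mm10). Capitals mark the motif matches found among 22 motifs searched on both strands.
Grrp1, chr4:134254057-134254356, minus strand: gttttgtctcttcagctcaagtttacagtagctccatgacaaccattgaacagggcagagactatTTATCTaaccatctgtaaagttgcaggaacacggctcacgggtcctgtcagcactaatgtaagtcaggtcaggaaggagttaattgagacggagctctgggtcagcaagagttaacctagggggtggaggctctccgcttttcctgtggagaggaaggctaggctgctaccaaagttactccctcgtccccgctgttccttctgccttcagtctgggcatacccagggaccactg
Gm51802, chr10:60162342-60162641, minus strand: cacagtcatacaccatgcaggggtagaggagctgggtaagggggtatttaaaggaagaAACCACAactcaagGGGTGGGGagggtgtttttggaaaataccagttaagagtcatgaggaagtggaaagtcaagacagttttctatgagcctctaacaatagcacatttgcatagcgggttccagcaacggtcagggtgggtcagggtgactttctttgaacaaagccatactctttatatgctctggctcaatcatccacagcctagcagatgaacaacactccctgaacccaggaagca
The Grrp1 window had a GC content of 51.3%, 6 CpG and 1 match to the GATA motif AGATAA (read as TTATCT), a motif held by 11.2% of the 32544 promoter windows of the table. The window of Gm51802, a long non-coding RNA gene, had a GC content of 47.3%, 2 CpG, 1 match to the RUNX motif TGTGGTT (read as AACCACA, 5.29% of windows) and 1 match to the KLF and SP motif GGGNGGGG (33.4% of windows). Neither window held the letters searched for an androgen response element, AP-1 or FOX motif. A match is a description of letters and not of a bound factor.

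The Grrp1 region, chr4:134254011-134254626, was the weakest of the 208 closed regions and lies inside the gene body. It had -log10 p values at the summit of 3.10, 3.62, 3.21 and 3.13 in SPOPmut with EtOH, against 3.05, 3.39, 3.29 and 3.18 in Control with EtOH. The Gm51802 region, chr10:60162062-60162682, whose nearest protein-coding gene is Chst3 (a chondroitin sulfotransferase) at 19.2 kb, had values of 4.74, 4.12, 4.73 and 4.08 in SPOPmut with EtOH, against 4.35, 4.02, 4.29 and 4.02 in Control with EtOH. The -log10 p was deposited by the authors, comes from their peak caller and varies with depth, so that tests were run on its rank, and its values in single libraries, and whether they overlap, are a description. At both regions the genotypes overlapped.

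Closed regions were weak and narrow peaks in EtOH libraries. The strength of a region was taken as the median, over the 8 EtOH libraries, of the percentile of its -log10 p within the peak list, from 0 (weakest) to 100 (strongest). The median percentile of closed regions was 21.4, with quartiles of 15.05 and 28.5 and a range of 1.04 to 53.5, against 40.8 for opened regions in DHT libraries and 62.0 for all 44376 regions called in all 8 EtOH libraries. Only 2 closed regions (0.962%) lay above the middle of the lists, against 402 opened regions (33.1%) and 65.7% of regions called in all 8 EtOH libraries. For that last set the percentile, here and in the median of 62.0, was taken over every library with a call, DHT libraries included. In single libraries the median percentile of closed regions was 23.0, 18.2, 23.9 and 18.7 in SPOPmut with EtOH and 26.1, 16.9, 23.4 and 23.3 in Control with EtOH. The lowest, 16.9, was in the library with the shortest peak list. Closed regions had a median width of 482 bp, between 242 and 1469 bp, against 632 bp for opened regions and 970 bp for regions called in all 8 EtOH libraries. In 199 closed regions (95.7%) each EtOH library had a single peak in the region, as did each DHT library in 96.8% of opened regions. The summits of the 8 EtOH libraries spanned a median of 83 bp at closed regions, against 55 bp at all regions called in those libraries and 68 bp at the 16878 of these whose strength lay within the range of the closed regions.

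**Figure D1:**
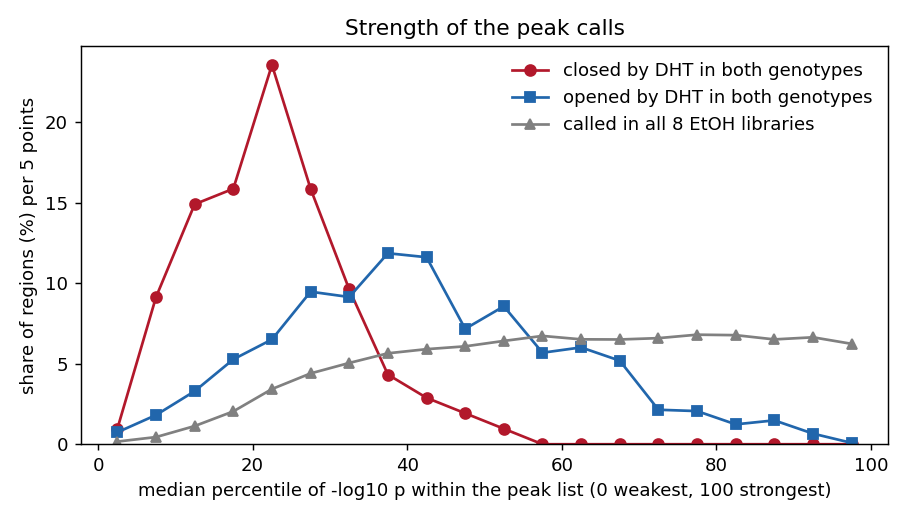
Share of regions (y axis, % per 5 points) by the median percentile of -log10 p within the peak list (x axis, 0 weakest to 100 strongest), for closed regions in EtOH libraries, opened regions in DHT libraries and all regions called in all 8 EtOH libraries. For the last set the median is over every library with a call, DHT libraries included. Closed regions peak near their median of 21.4, and 2 of 208 lie above 50.

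The rule drew a hard edge through a continuous range. Among 44376 regions called in all 8 EtOH libraries, 39300 were also called in all 8 DHT libraries, 208 (0.469%) in none, 156 in 1 and 199 in 2 DHT libraries. The 156 regions just outside the rule on the DHT side had a median percentile of 22.3 in EtOH. A further 188 regions were called in 7 EtOH and no DHT libraries, with a median percentile of 13.9. One library, Control EtOH replicate 2 with 57245 peaks, was the only one to keep 86 regions out. Without it 294 regions were closed.

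Closed regions were mostly outside genes, with few at gene ends. A protein-coding gene began or ended within 1 kb of 7 closed regions (3.37%), against 2.97% of opened regions and 21.7% of regions called in all 8 EtOH libraries. Inside gene bodies were 72 (34.6%), against 47.7% and 39.6% of those sets, and 129 (62.0%) were outside genes, against 49.3% and 38.7%. The median distance to the nearest gene end was 37.5 kb, against 26.6 kb for opened regions and 11.5 kb for regions called in all 8 EtOH libraries. For 40 closed regions (19.2%) no protein-coding gene lay within 100 kb, against 13.8% of opened regions and 7.08% of regions called in all 8 EtOH libraries. Regions within the closed regions' range of strength had 12.02% at gene ends. Their median percentile, over every library with a call, was 37.2, against 21.4 for the closed regions. The part of peak strength in these shares was not tested. Chromosome 4 held the most closed regions, 18 (8.65%, against 5.63% of regions called in all 8 EtOH libraries), followed by chromosomes 1 and 7 with 17 each, while chromosome 14 held 2 (0.962% against 3.00%), chromosome 19 held 3 and chromosome Y none.

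The 5 most strongly called closed regions lay near Thbs2, Igsf3, Slc39a10 and Inpp4b, and on chromosome 1 away from any gene. The strongest, chr17:14608152-14609195, lay 56.8 kb from Thbs2, which encodes thrombospondin 2, a secreted matrix glycoprotein. Its -log10 p was 5.15, 5.001, 5.16 and 5.44 in SPOPmut with EtOH, against 5.93, 4.95, 5.20 and 5.27 in Control with EtOH, and the genotypes overlapped. The second, chr3:101360008-101361476, lay 15.9 kb from Igsf3, an immunoglobulin-domain membrane protein, with values of 4.64, 4.47, 4.41 and 4.27 in SPOPmut with EtOH, against 6.06, 5.36, 5.83 and 5.93 in Control with EtOH. Here all 4 SPOPmut libraries were below all 4 Control libraries. Next in order came chr1:120734730-120735201, with no gene within 100 kb, at 5.36, 5.001, 5.40 and 5.13 in SPOPmut with EtOH against 4.23, 4.39, 4.84 and 4.40 in Control with EtOH, the opposite order of genotypes. The region chr1:46963151-46963712 lay 37.7 kb from Slc39a10, a zinc importer of the plasma membrane, with values of 4.58, 4.75, 4.72 and 5.23 in SPOPmut with EtOH against 5.24, 4.35, 5.34 and 5.08 in Control with EtOH.

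Inpp4b, which encodes a phosphoinositide 4-phosphatase and is known as an androgen-regulated gene, held the fifth strongest closed region inside its gene body, chr8:81844039-81845371. The -log10 p there was 4.66, 4.69, 4.63 and 4.45 in SPOPmut with EtOH, against 5.47, 4.86, 5.31 and 5.73 in Control with EtOH, so that all SPOPmut libraries were lower. Over all 19 regions assigned to Inpp4b, 9, 9, 11 and 14 were called in SPOPmut with DHT against 15, 12, 13 and 14 in SPOPmut with EtOH. In Control, 7, 8, 10 and 9 were called with DHT against 17, 14, 18 and 15 with EtOH. The Control libraries of the 2 treatments did not overlap, while 1 SPOPmut DHT library reached the range of its EtOH libraries. The closed region is part of every EtOH count by the choice. Without it Inpp4b had 7 to 14 called regions in the 8 DHT libraries against 11 to 17 in the 8 EtOH libraries. Of the 19 regions, 6 were called in every library.

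Uqcrc2, a core subunit of mitochondrial complex III, held a closed region in its gene body, chr7:120650615-120651227. It had -log10 p values of 5.17, 4.84, 5.36 and 4.90 in SPOPmut with EtOH, against 4.42, 3.72, 3.63 and 3.96 in Control with EtOH. Cdkal1, which modifies a transfer RNA, held one at chr13:29786317-29786841, with 4.78, 4.40, 5.07 and 4.45 in SPOPmut with EtOH against 4.40, 4.54, 4.74 and 4.65 in Control with EtOH. The genotypes did not overlap at Uqcrc2 and overlapped at Cdkal1. Of the 12 strongest closed regions, at most 1 a gene, 5 had no protein-coding gene within 100 kb: the one on chromosome 1 above, chr13:6077344-6077767, chr4:55734047-55735026, chr17:75916596-75917043 and chr3:110645964-110646764.

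**Figure D2:**
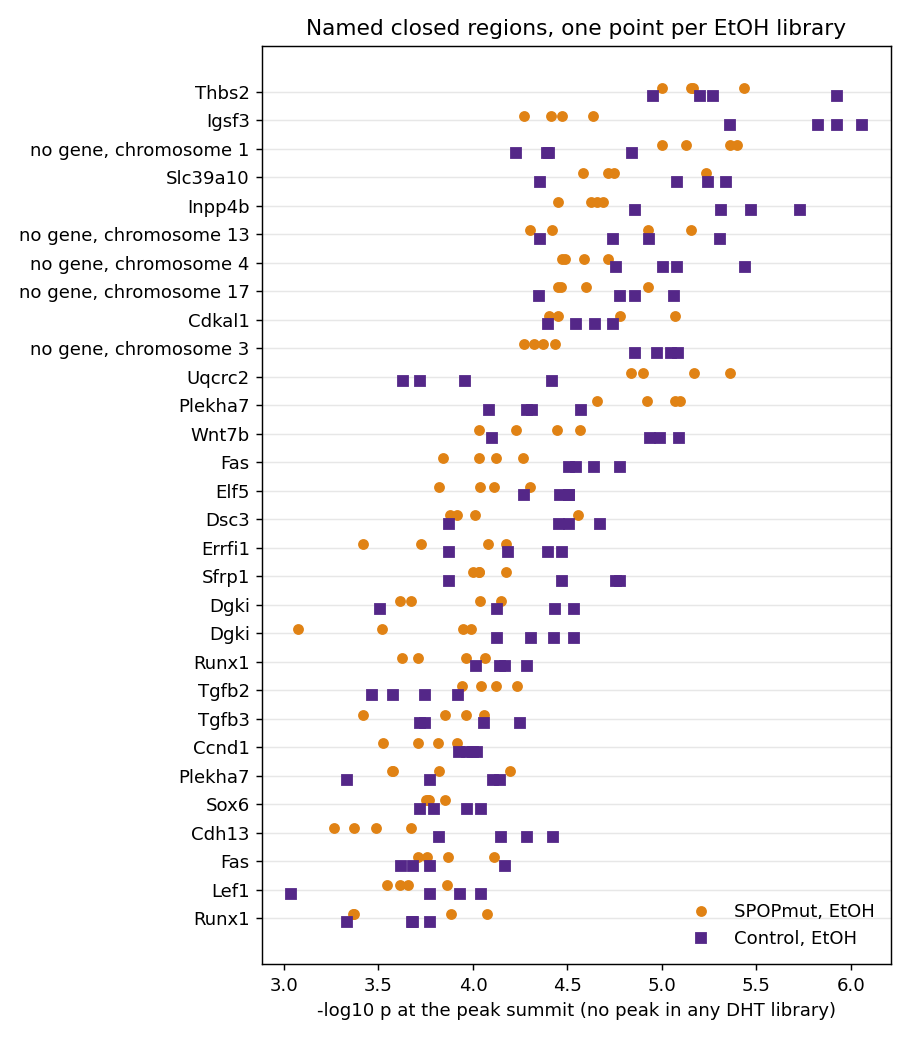
The -log10 p at the peak summit (x axis) of 30 closed regions (y axis, by nearest gene), namely the strongest, those of listed genes and those of genes with 2, with 1 point for each EtOH library, SPOPmut as circles and Control as squares. No DHT library had a peak in any of them. SPOPmut points lie left of Control points at Igsf3 and Inpp4b and right of them at Uqcrc2 and the upper Plekha7 region.

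Closed regions with a gene within 100 kb were assigned to 164 genes, or 1.05% of the 15677 genes with a tested region. Of these genes 160 had 1 closed region, and Fas, Runx1, Plekha7 and Dgki had 2 each. Fas is a death receptor of the tumour necrosis factor receptor family. Its closed regions, chr19:34336612-34337228 and chr19:34352591-34353556, were 16.2 kb apart with no other tested region between them. The nearer, 9.14 kb from the gene, had -log10 p values of 3.87, 3.71, 3.76 and 4.11 in SPOPmut with EtOH against 4.17, 3.62, 3.68 and 3.77 in Control with EtOH. The farther, 25.3 kb from the gene, had 3.84, 4.26, 4.12 and 4.03 in SPOPmut with EtOH against 4.78, 4.54, 4.64 and 4.51 in Control with EtOH. Genotypes overlapped at the nearer and not at the farther. Called regions at Fas numbered 6 to 9 in SPOPmut with DHT against 9 to 11 in SPOPmut with EtOH, and 9 to 10 in Control with DHT against 11 to 15 in Control with EtOH. Its 2 closed regions are part of every EtOH count by the choice. Without them Fas had 6 to 10 called regions in the 8 DHT libraries against 7 to 13 in the 8 EtOH libraries.

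Runx1, a RUNX family transcription factor, had closed regions at chr16:92573494-92573955 (27.7 kb from the gene) and chr16:92911727-92912196 (85.9 kb). The nearer had -log10 p values of 3.71, 3.96, 4.06 and 3.63 in SPOPmut with EtOH against 4.17, 4.15, 4.01 and 4.29 in Control with EtOH. The farther had 3.36, 3.37, 3.88 and 4.07 in SPOPmut with EtOH against 3.68, 3.33, 3.68 and 3.77 in Control with EtOH. At both the genotypes overlapped. Called regions at Runx1 numbered 20 to 22 in SPOPmut with DHT against 22 to 28 in SPOPmut with EtOH. In Control they numbered 18 to 21 with DHT against 21 to 28 with EtOH. The treatments thus met at a single value in each genotype, but both closed regions are part of every EtOH count by the choice. Without them Runx1 had 18 to 22 called regions in the DHT libraries against 19 to 26 in the EtOH libraries. The treatments then overlapped.

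Plekha7 encodes a protein of the epithelial zonula adherens. Both of its closed regions lay in the gene body, 32.3 kb apart. At chr7:116201949-116202684 the -log10 p was 5.09, 4.92, 5.07 and 4.65 in SPOPmut with EtOH against 4.29, 4.31, 4.57 and 4.09 in Control with EtOH, and the genotypes did not overlap. At chr7:116234406-116234909 it was 4.19, 3.57, 3.82 and 3.58 in SPOPmut with EtOH against 4.11, 3.33, 4.14 and 3.77 in Control with EtOH, and they overlapped. The same gene also held 2 opened regions. Dgki, a diacylglycerol kinase, had closed regions at chr6:37203169-37204055 and chr6:37283190-37283657 in its gene body, 79.8 kb apart. The first had 3.99, 3.52, 3.95 and 3.07 in SPOPmut with EtOH against 4.30, 4.43, 4.53 and 4.13 in Control with EtOH. The second had 4.04, 3.62, 4.15 and 3.67 in SPOPmut with EtOH against 4.44, 3.51, 4.53 and 4.13 in Control with EtOH. Genotypes overlapped at the second only. Another 2 pairs of closed regions lay within 100 kb of each other. On chromosome 4, chr4:115264501-115265038 and chr4:115278626-115279168 were 14.1 kb apart, next to Cyp4a29 and Cyp4a12a, cytochrome P450 genes of the fatty acid hydroxylase family. On chromosome 2, chr2:137725378-137725932 and chr2:137759495-137759929 were 34.1 kb apart, with no gene within 100 kb.

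Among 17 gene lists for hormone response, signalling, cell types and housekeeping, 13 of the 339 listed genes with a tested region (3.83%) were assigned a closed region, against 1.05% of all genes with a tested region. Listed genes also hold many regions, 3598 for the 339 genes, against 73249 for all 15677 genes with a tested region. Opened regions were assigned to 16.5% of the listed genes, against 5.74% of all genes with a tested region. The part of regions per gene in these shares was not tested. The Wnt and Notch list had 3 of 32 genes with a closed region (Wnt7b, Lef1, Sfrp1), epithelial transcription factors 3 of 48 (Sox6, Runx1, Elf5), TGF-beta and BMP 2 of 31 (Tgfb2, Tgfb3), and adhesion and matrix 2 of 34 (Cdh13, Dsc3). Androgen response had 1 of 26 (Inpp4b), reported androgen-repressed genes 1 of 15 (Ccnd1), EGF receptor and ERK feedback 1 of 19 (Errfi1), and cell cycle and housekeeping 1 of 21 (Ccnd1 again). None of the 20 basal, 18 luminal, 22 AP-1 and immediate early, 17 Hippo target, 21 interferon and inflammation, 14 stromal, 8 endothelial, 7 immune and 8 neuroendocrine genes with a tested region had one. Most assignments were distant, and within the gene body or 10 kb of it only 5 listed genes remained: Cdh13, Elf5, Inpp4b, Sox6 and Tgfb3.

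Of the secreted ligands, Wnt7b, a Wnt ligand of epithelia, lay 56.9 kb from its closed region, chr15:85638462-85638961. The -log10 p was 4.45, 4.57, 4.23 and 4.03 in SPOPmut with EtOH against 5.09, 4.102, 4.94 and 4.99 in Control with EtOH. The genotypes overlapped through 1 low Control library. Tgfb2 and Tgfb3 encode TGF-beta ligands, which restrain the growth of many epithelia. The Tgfb2 region, chr1:186581189-186582219, 41.1 kb from the gene, had 3.94, 4.04, 4.12 and 4.23 in SPOPmut with EtOH against 3.75, 3.92, 3.47 and 3.58 in Control with EtOH. The Tgfb3 region in the gene body, chr12:86068890-86069489, had 4.06, 3.96, 3.85 and 3.42 in SPOPmut with EtOH against 3.75, 3.72, 4.06 and 4.25 in Control with EtOH. Neither order of genotypes was complete for Tgfb3, and for Tgfb2 the libraries did not overlap on this scale but overlapped in rank. At Tgfb3 2 regions were called in each of the 8 DHT libraries, against 5, 4, 4 and 3 in SPOPmut with EtOH and 3, 3, 4 and 3 in Control with EtOH. At Tgfb2 7 to 9 regions were called in SPOPmut with DHT against 9 to 11 in SPOPmut with EtOH, and 6 to 7 in Control with DHT against 9 to 10 in Control with EtOH. At both genes the closed region is part of every EtOH count by the choice. Without it the EtOH libraries had 2 to 4 called regions at Tgfb3, against 2 in DHT. At Tgfb2 they had 8 to 10, against 6 to 9 in DHT.

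Of the modulators of signalling, Sfrp1, a secreted Wnt antagonist, had a closed region at chr8:23493464-23493888, 44.0 kb away, with 4.17, 4.00, 4.03 and 4.03 in SPOPmut with EtOH against 4.76, 3.87, 4.78 and 4.47 in Control with EtOH. Errfi1, a feedback inhibitor of the EGF receptor, had one at chr4:150803944-150804450, 49.6 kb away, with 4.17, 4.08, 3.72 and 3.42 in SPOPmut with EtOH against 4.40, 3.87, 4.19 and 4.47 in Control with EtOH. Both sets of values overlapped between genotypes on the -log10 p scale, while in rank every SPOPmut library was below every Control library at Sfrp1 and the genotypes overlapped at Errfi1. For Lef1, a transcription factor that works with beta-catenin, the closed region chr3:131014131-131014782, 95.8 kb away, was its only tested region.

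Of the transcription factors, Elf5, an ETS factor of glandular epithelium, lay 6.67 kb from its closed region, chr2:103405258-103405593. The -log10 p was 4.04, 4.30, 3.82 and 4.11 in SPOPmut with EtOH against 4.51, 4.27, 4.46 and 4.51 in Control with EtOH. Sox6, a SOX family factor, held a closed region in its gene body at chr7:116013875-116014288, with 3.76, 3.75, 3.85 and 3.77 in SPOPmut with EtOH against 3.80, 3.72, 3.97 and 4.04 in Control with EtOH. Genotypes overlapped at both. Sox6 also held 4 opened regions, and its called regions numbered 32, 32, 37 and 39 in SPOPmut with DHT against 24 in each library of SPOPmut with EtOH, and 27, 26, 26 and 28 in Control with DHT against 23, 24, 23 and 22 in Control with EtOH. The 4 opened regions of each DHT count and the closed one of each EtOH count are set by the choice. Without them Sox6 had 22 to 35 called regions in the 8 DHT libraries against 21 to 23 in the 8 EtOH libraries, and the treatments overlapped.

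Ccnd1, cyclin D1 of the G1 phase of the cell cycle, lay 43.0 kb from chr7:144982544-144983126, with 3.81, 3.71, 3.92 and 3.53 in SPOPmut with EtOH against 4.02, 3.97, 3.92 and 4.00 in Control with EtOH. Of the adhesion genes, Cdh13 (T-cadherin) held chr8:118394026-118394635 in its gene body, with 3.48, 3.27, 3.37 and 3.67 in SPOPmut with EtOH against 4.15, 3.82, 4.42 and 4.29 in Control with EtOH. Dsc3, a desmosomal cadherin of basal epithelium, lay 73.1 kb from chr18:19887235-19888335, with 4.01, 3.88, 3.92 and 4.55 in SPOPmut with EtOH against 4.45, 3.87, 4.67 and 4.51 in Control with EtOH. SPOPmut was lower than Control in every library at Cdh13, and the genotypes overlapped at Dsc3.

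Some genes with a closed region held an opened one as well. Of the 164 genes, 25 (15.2%) also held a region opened in both genotypes, against 5.74% of all genes with a tested region. Long genes with many regions can hold both by their size, and the part of gene size in this share was not tested. The 25 were Tjp1 (a tight junction scaffold), Pard3 (a polarity scaffold), Plekha7, Capzb (an actin capping subunit), Ppp1r12b (a myosin phosphatase subunit), Cdh13, Errfi1, Maml2 (a Notch coactivator), Prkch (a protein kinase C), Sema3c (a semaphorin ligand), Sh3rf1 (a scaffold of JNK signalling), Dgki, Cdkal1, Cpa6, Dip2c, Dnm3, Hpcal1, Igsf3, Jarid2, Kcnv2, Mipol1, Pcsk6, Phtf2, Sox6 and Zfp652. Within 100 kb of an opened region, whether or not at the same gene, lay 35 closed regions (16.8%), against 19.0% of regions called in all 8 EtOH libraries. The gap between those shares was not tested.

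The other regions of the 164 genes leaned the same way as the closed ones, though not at every gene. Among the 939 other regions called in some but not all libraries, 530 (56.4%) were called in fewer DHT than EtOH libraries and 277 (29.5%) in more, against 48.0% and 35.0% of such regions at all genes. With closed and opened regions left out, 101 genes had a lower mean number of called regions in DHT than in EtOH, 43 a higher one and 15 an equal one, and 5 had no other region. The DHT and EtOH libraries did not overlap at 2 genes, both lower in DHT. Bpnt2 had 4 to 5 other regions called in DHT against 6 to 7 in EtOH, and Sap130, a subunit of a SIN3 corepressor complex, 2 to 3 against 4 to 5. At no gene were all DHT libraries above all EtOH libraries. These counts of genes were not made over all genes, so they cannot be read as a trait of the 164. Bpnt2 and Sap130 were singled out after their values were seen. These calls share their libraries with the choice of the closed regions and are given as a description.

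Neighbouring regions followed the same direction over short distances. Of the 39630 regions called in some but not all libraries and neither closed nor opened in both genotypes, 48.2% were called in fewer DHT than EtOH libraries and 34.6% in more. Within 10 kb of a closed region lay 154 of them, of which 112 (72.7%) had fewer calls in DHT and 29 (18.8%) had more, and 41 (26.6%, against 11.2% of all) had fewer by 4 libraries or more. The share with fewer calls in DHT was 59.3% at 10 to 25 kb and 53.2%, 53.3%, 52.99% and 49.1% in the bins out to 500 kb. Around opened regions it was 29.5% within 10 kb and 37.6% at 10 to 25 kb, and reached 48.7% in the last bin. Without Control EtOH replicate 2 the treatments have unequal numbers of libraries, so the share of libraries called was compared, and equal counts passed as fewer in DHT. By that measure, which is unlike the one above, 80.6% of 217 regions within 10 kb of 294 closed regions had fewer calls in DHT. Of all such regions it was 60.1%. A region called in all 16 libraries was found within 5 kb of 68 closed regions (32.7%), and the median distance to the nearest was 10.4 kb. Opened regions were alike, at 32.6% and a median of 8842.5 bp. The share was 30.1% of regions called in 8 EtOH libraries and 1 DHT library, and 27.7% of those called in 7 EtOH and no DHT libraries.

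**Figure D3:**
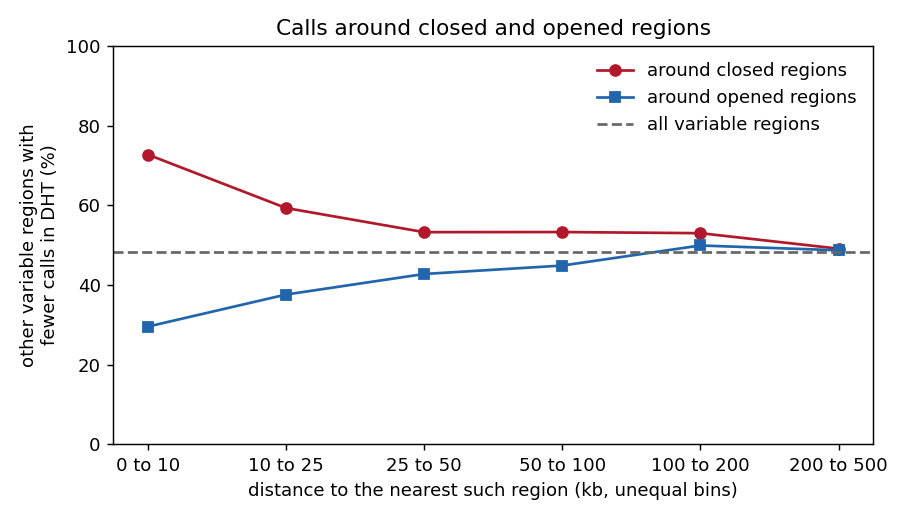
Share of other variable regions called in fewer DHT than EtOH libraries (y axis, %) by distance to the nearest closed (circles) or opened (squares) region (x axis, kb, unequal bins), with all variable regions as the dashed line. The share is 72.7% within 10 kb of a closed region and 29.5% within 10 kb of an opened one, and both come near 48.2% beyond 200 kb.

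To learn how far a closed region of one genotype held in the libraries of the other, which had no part in choosing it, regions were called closed in one genotype alone when called in its 4 EtOH libraries and none of its 4 DHT libraries. In SPOPmut 1587 regions were closed, 2.98% of those called in its 4 EtOH libraries, and in Control 1573, or 3.07%. The 208 regions shared by both made up 13.1% of the SPOPmut list and 13.2% of the Control list. None of either list went the opposite way in full. Followed in SPOPmut, 718 of the 1573 Control regions (45.6%) were called in fewer DHT than EtOH libraries and 10 (0.636%) in more, while 310 (19.7%) were called in all 8 SPOPmut libraries and 528 (33.6%) in none. Followed in Control, 773 of the 1587 SPOPmut regions (48.7%) were called in fewer DHT than EtOH libraries and 9 in more, while 280 (17.6%) were called in all 8 Control libraries and 514 (32.4%) in none.

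Library by library, 411, 376, 501 and 517 of the 1573 Control regions were called in SPOPmut with DHT, against 927, 856, 964 and 878 in SPOPmut with EtOH. Of the 1587 SPOPmut regions, 415, 363, 457 and 447 were called in Control with DHT, against 977, 764, 965 and 937 in Control with EtOH. In neither direction did the DHT and EtOH libraries overlap.

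**Figure D4:**
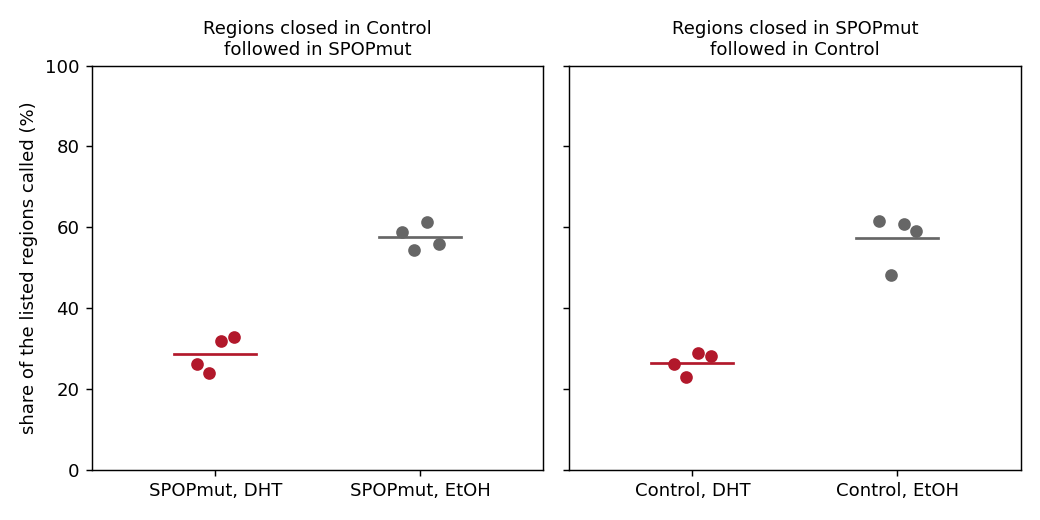
Share of regions closed in one genotype that were called in each library of the other genotype (y axis, %), with DHT left of EtOH (x axis), 1 point a library and a line at the mean. Each DHT library of SPOPmut lies between 23.9 and 32.9% and each EtOH library between 54.4 and 61.3%, and Control gives a like picture with its lowest EtOH library at 48.1%.

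A region can be closed in the other genotype only if called in all 4 of its EtOH libraries, so the shares are also given among such regions. Of the 757 Control regions called in all 4 SPOPmut EtOH libraries 27.5% were closed there, against 2.63% of the other 52476 regions called in those libraries. Of the 723 SPOPmut regions called in all 4 Control EtOH libraries 28.8% were closed there, against 2.70% of the other 50544. For opened regions the shares were 73.6% of the Control list followed in SPOPmut and 72.0% of the SPOPmut list followed in Control, each among regions called in all 4 DHT libraries of the genotype followed. Of the other regions called in those DHT libraries, 4.96% were opened in SPOPmut and 2.31% in Control. With the lists included, opened regions were 7.08% in SPOPmut and 4.63% in Control. The shares also varied with strength. Among regions in the weakest 25 percentiles of the SPOPmut EtOH lists, 57.2% of the Control regions were closed in SPOPmut, against 14.4% of other regions as weak. Between percentiles 25 and 50 it was 19.0% against 1.78%, between 50 and 75 it was 1.55% against 0.0200%, and above 75 none of 19 regions was closed in SPOPmut. In the other direction the shares were 61.8% against 15.3%, 21.2% against 2.35%, 4.05% against 0.0476%, and none of 13.

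Without hormone, no closed region passed the test of SPOPmut against Control. Each region was ranked in every EtOH library among the 44376 regions called in all 8, from 0 (weakest) to 100, and SPOPmut was compared with Control, a contrast that the choice of the regions did not use. All 4 SPOPmut ranks lay above all 4 Control ranks at 20 closed regions (9.62%), against 24.5% of all 44376 regions, and below them at 34 (16.3%), against 23.7%. Regions whose strength lay between the quartiles of the closed regions gave 14.8% above and 17.8% below. The median difference, SPOPmut minus Control, was -1.29 points, with 85 of 208 above 0. By exact two-sided permutation tests with Benjamini-Hochberg adjustment over the 44376 regions, 0 closed regions had an adjusted p under 0.05, and 54 had an unadjusted p under 0.05. With 4 libraries against 4 the smallest possible p was 0.0286, which gave an adjusted p of 0.0593 at best, so that this test could not have passed any region.

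Differences ran from -37.3 points at Igsf3 to 25.4 points at Uqcrc2. The Igsf3 region had a mean rank of 17.8 ± 4.23 in SPOPmut with EtOH against 55.1 ± 2.67 in Control with EtOH (SD, n = 4 libraries each). At Inpp4b the mean rank was 21.8 ± 4.33 in SPOPmut against 44.0 ± 6.05 in Control. At Adamts16, which encodes a secreted metalloprotease, the region chr13:70698719-70699203, 28.8 kb from the gene, had 3.51 ± 2.304 in SPOPmut against 24.2 ± 12.5 in Control. These 3 were the closed regions with the largest deficit in SPOPmut. Those with the largest excess were Uqcrc2, at 33.5 ± 1.74 in SPOPmut against 8.13 ± 5.88 in Control, and 2 regions with no gene within 100 kb. Of these, chr12:118694498-118695633 had 24.9 ± 3.21 in SPOPmut against 3.41 ± 2.43 in Control, and chr1:81675552-81676524 had 24.96 ± 5.76 against 3.76 ± 3.72. At each of the 6 the libraries of the genotypes did not overlap in rank, and the adjusted p was 0.0593 by exact permutation. Adamts16 as a whole had fewer called regions in SPOPmut than in Control, with 1, 3, 3 and 4 in SPOPmut with DHT against 9, 9, 10 and 11 in Control with DHT, and 6, 5, 7 and 6 in SPOPmut with EtOH against 15, 12, 14 and 14 in Control with EtOH.

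**Figure D5:**
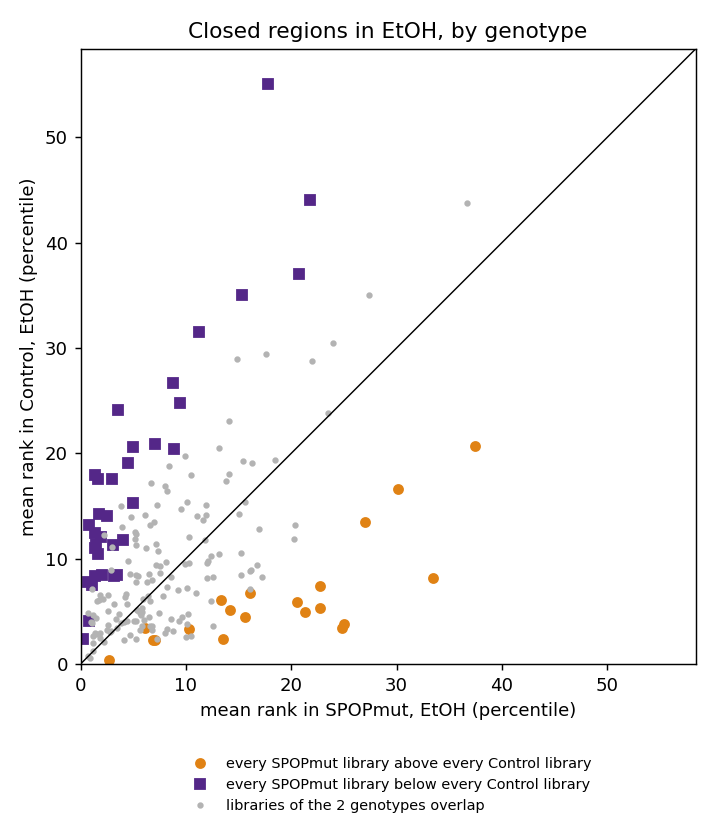
Mean rank of each of the 208 closed regions in SPOPmut with EtOH (x axis, percentile among regions called in all 8 EtOH libraries) and in Control with EtOH (y axis, same scale), with the line of equal ranks. Circles (20) have every SPOPmut library above every Control library, squares (34) every SPOPmut library below, and small points overlap.

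Called regions per library are given next for other genes named by the rule. Slc39a10 had 4 called regions in each library of SPOPmut with DHT against 8 in each library of SPOPmut with EtOH, and 3, 2, 4 and 2 in Control with DHT against 5, 4, 6 and 5 in Control with EtOH. Thbs2 had 10 to 12 in SPOPmut with DHT against 12 to 15 in SPOPmut with EtOH, and 8 to 10 in Control with DHT against 11 to 12 in Control with EtOH. Ccnd1 had 8 in SPOPmut with DHT against 9 to 10 in SPOPmut with EtOH, and 7 to 8 in Control with DHT against 9 in Control with EtOH. Uqcrc2 had 2 in every DHT library against 3 to 4 in SPOPmut with EtOH and 3 in Control with EtOH. These counts include the closed region itself, so that 1 called region of each difference (2 at genes with 2 closed regions), and any opened region, is set by the choice. At Mipol1 and Dgki the libraries of the genotypes did not overlap in either treatment, nor did they at Adamts16, Sfrp1, Cpa6 and Kcnv2. The share of all genes with such a gap was not counted. Mipol1 had 19 to 21 called regions in SPOPmut with DHT against 12 to 14 in SPOPmut with EtOH, but 8 in each library of Control with DHT against 7 to 11 in Control with EtOH. Dgki had 5 to 10 in SPOPmut with DHT against 8 to 9 in SPOPmut with EtOH, and 12 to 17 in Control with DHT against 13 to 19 in Control with EtOH. Whether the DHT difference at these genes depended on genotype was not tested.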

How the data were processed

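ATAC-seq was measured in 16 libraries, 4 in each of 4 groups. Per the submitters' processing notes, the tools were Bowtie2 2.3.4.1, SAMtools 1.8 and Genrich (version not given in the sources used here), with build mm10. The authors deposited 1 peak list per library, with a -log10 p at the summit, a signal (just over 200 at the least) and a score of at most 1000, which was not used. Deposited -log10 p and signal values depend on depth. Comparisons between genotypes were tested on ranks, and the -log10 p values of single libraries are printed as a description. Pooled signal tracks were not used here.

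Overlapping peaks were merged into regions, and genes came from a RefSeq table (21887 protein-coding genes), each region going to the nearest gene body within 100 kb. The promoter table covered 79.9% of these genes and none on chromosome 18, so distances to starts were not computed. The motifs were searched on both strands. The AP-1 motif was TGANTCA, and its longer form with a BACH or NRF2 end, which contains it, was TGANTCAGC. The FOX motif was TGTTTAC, the TEAD motif was CATTCC, the RUNX motif was TGTGGTT and the GATA motif was AGATAA. The androgen response element was searched as the single site AGAACA and as a palindrome, which can share bases with that site. The NFI motif was searched as TTGGCA and as a palindrome, which shares bases with it. The GRHL motif was AACNNGTT, the KLF and SP motif was GGGNGGGG, the ETS motif was CCGGAAG and the SOX motif was ACAATGG. The CEBP motif was TTGCNNCAA, the HOXB13 motif was CCAATAAA and the STAT motif was TTCCNGGAA. The TCF and LEF motif was ATCAAAG, and the SNAI and ZEB motif was CAGGTG. The p53, CTCF core and RFX motifs completed the search. Whole regions were not searched, because no genome was used.

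Named genes were those with 2 or more closed regions, the 12 strongest closed regions, listed genes with a closed region, the 3 largest genotype differences per direction, and genes that also held an opened region. In the lists 363 of 364 entries matched. The regions and lists were chosen with earlier results of these data known. Python 3.11.15, NumPy 2.4.6, pandas 2.3.3, SciPy 1.17.1 and Matplotlib 3.10.9 were used, and the permutation and overlap steps were tested on simulated data. With p-values from 4 libraries against 4, only the spread between these libraries is measured.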

Additional observations from a re-analysis of the deposited data

Results flagged for a closer look

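The 4 libraries of each EtOH genotype were examined for 1 value far from the others at 51 named closed regions, and the 4 libraries of each group for peak list length, which gave 106 groups of 4. Chance alone gives about 1 in 20 such groups. The search returned 5, all -log10 p values. Control EtOH replicate 2, the library with the shortest of the 16 peak lists, was far below the other 3 at the regions of Wnt7b (4.102, against 4.94 to 5.09), Ppp1r12b (3.97, against 4.46 to 4.52) and Dip2c (4.23, against 4.84 to 4.85). In SPOPmut with EtOH, replicate 1 was far above the other 3 at Dip2c (4.22, against 3.99 to 4.00), and replicate 2 far below them at Phtf2 (3.62, against 3.81 to 3.82).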

How the results depend on the processing

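The number of closed regions, 208, was 209 when peaks had to overlap by 100 bp to merge, 212 when peaks had to cover most of a region, 211 with all lists cut to the shortest, and 165 without the weakest 25% of each list. It was 552 when 1 of 16 libraries could go against the rule, and 209 to 294 when each library was left out in turn. Whether replicate numbers pair the samples could not be told. Correlations of same-numbered EtOH deviations were 0.118, -0.0230, 0.0397 and 0.0578. The same number was the best match for SPOPmut replicates 1, 3 and 4 and not for replicate 2, nor for every Control library. With the numbers as a replicate block the closed regions remained 208 in number, while 33 had SPOPmut higher in every pair and 54 lower, against 20 and 34 without pairing. Of all regions called in all 8 EtOH libraries, 31.6% were higher and 30.5% lower with the block, against 24.5% and 23.7% without pairing. The counts of closed regions higher and lower were 21 to 26 and 34 to 46 with single libraries left out. Of all regions 25.7 to 27.2% were then higher and 25.2 to 26.1% lower. Without chromosomes 2, 8, 13, 14 and 15 the counts were 16 and 23 of 157 closed regions, against 22.9% and 21.8% of all regions. The count with an adjusted p under 0.05 was 0 in each setting. Of the closed regions, 12.5% were at most 5 kb from a gene end and 60.1% had a gene within 25 kb, against 3.37% within 1 kb and 80.8% with a gene within 100 kb. Of regions called in all 8 EtOH libraries, 36.2% were at most 5 kb from a gene end and 81.2% had a gene within 25 kb. Listed genes with a closed region numbered 5 with a 10 kb limit, against 13. In settings added after seeing the data, leaving out single libraries gave 10.8 to 15.6% of the Control list and 11.04 to 18.5% of the SPOPmut list as shared. Without Control EtOH replicate 2, 80.6% of neighbours within 10 kb had fewer calls in DHT, against 60.1% of all such regions. There the share of libraries called was compared, so that equal counts passed as fewer in DHT, unlike in the main setting. The wider or narrower limits of these settings account for the counts by construction, and otherwise the cause was not tested. Motif content of whole regions was not run.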

Other observations

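Leaving closed and opened regions out, the genes with the largest mean deficit of called regions in DHT were Nav2, Esr1, Inpp4b and Mast4, of which Nav2, Esr1 and Mast4 are named here after their values were seen. Nav2 (a neuron navigator protein) had 27 to 34 called regions in the 8 DHT libraries against 30 to 38 in the 8 EtOH libraries. Esr1, oestrogen receptor alpha, had 12 to 17 in DHT against 16 to 21 in EtOH, and Mast4, a microtubule-associated kinase, 20 to 28 in DHT against 22 to 34 in EtOH. Inpp4b had 7 to 14 in DHT against 11 to 17 in EtOH. The largest mean excess was at Sox6, followed by Mipol1, which had 7 to 20 in DHT against 6 to 13 in EtOH. The libraries of the treatments overlapped at each of these genes.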
